A study of Mus musculus with 2 samples.

Results

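The DNA repair genes described here were 65 genes of the deposited table, of 23361 genes with values, whose symbols matched a fixed pattern of repair gene names (the Fanc, Rad, Xrcc, Brca, Msh, Mlh, Pms, Ercc, Parp and Chek families, with Bard1, Palb2, Blm, Wrn, Exo1, Ogg1, Atm and Atr). The choice used symbols and no measured value, and 64 of the 65 were above 0 in both libraries. RNA-Seq had been performed once on brown preadipocytes (D0) and once on differentiated brown adipocytes (D7), so neither stage has a replicate and the series holds 2 libraries. Both libraries came from cells of interscapular brown adipose tissue of newborn C57BL/6 mice, expanded in medium with 20% fetal bovine serum and then held in differentiation medium with 10% serum, 0.1 uM insulin and 1 nM T3. D0 was the day of induction, day 0. Cells of D7, day 7, had in addition received 0.5 mM IBMX, 2 ug/ml dexamethasone and 0.125 mM indomethacin for 2 days. The labels call the cells primary cultures, whereas the study's methods describe immortalization with a retroviral large T, a viral protein known to bind p53 and the retinoblastoma protein. Whether the cells of these libraries carried it is not settled by these sources. Several newborn pups of either sex were used in the study, and whether a library pooled their cells is not given in the sources used here.

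Values were FPKM, the fragments assigned to a gene per length of transcript and per number of fragments sequenced. A gene was called lower at a ratio of D7 to D0 of at most 0.5 and higher at a ratio of at least 2. For each ratio an exact 95% interval was computed from the approximate number of fragments behind the values. It covers counting error between these 2 libraries only and not the spread between cultures, so no p-value can be given. In bulk RNA, fewer cells that transcribe a gene and less transcript per cell cannot be told apart.

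The D7 library carried the adipocyte markers. All 6 of them were called higher, from a summed 81.6 FPKM at D0 to 17709 at D7, and the brown adipocyte genes Ucp1, Cidea and Elovl3 were listed at 0 at D0 and at 4.57, 24.4 and 34.2 FPKM at D7. Of 24 proliferation genes (cyclins, mitotic kinases, MCM helicase subunits and others), 20 were called lower, 0 were called higher, and the median log2 ratio was -1.89. Mki67, the classical proliferation marker, was at 2.60 FPKM at D0 and 0.670 at D7. Ccne1, Ccne2, E2f1 and Mcm7 were the 4 that stayed under 2-fold, with ratios of 0.513 to 0.733. The 6 preadipocyte markers split, with Col1a1 and Thy1 called lower (ratios 0.316 and 0.469), Dlk1 and Cd34 called higher (ratios 10.8 and 8.29) and 2 under 2-fold. Markers of other cells moved too: 10 of 11 macrophage genes were called higher, with a summed 156 FPKM at D0 and 584 at D7. All 3 neural genes were called higher at a low summed level (1.18 and 4.16 FPKM). Endothelial genes summed to 0.995 and 2.32 FPKM, with Tie1 at 0 in both libraries. Skeletal muscle genes summed to 0.0160 and 0.0711, and erythroid genes to 0.0265 and 0.0312. The part of these lists in the values of the repair genes was not tested.

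Cells repair DNA by several routes that differ in the damage they act on. Homologous recombination copies an intact sister chromatid across a double-strand break and the Fanconi anaemia pathway unhooks crosslinks during replication, so both work mainly in cells that replicate their DNA. Nucleotide excision, base excision and end joining also serve cells that have left the cycle, as mature adipocytes have.

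Across the 65 genes the change was divided. Of the 64 genes above 0 in both libraries, 12 were called lower and 2 were called higher at D7, and 50 stayed under 2-fold. Over all 14986 genes above 0 in both, 13.2% were called lower and 18.5% higher, beside 18.8% lower and 3.12% higher among the repair genes. The median log2 ratio was -0.06 for the repair genes and 0.02 for all genes, and the summed FPKM was 418 at D0 and 394 at D7. Most calls lay among genes of low level. Among the 12 genes called lower the median was 0.930 FPKM at D0 and 0.239 at D7, whereas among the others it was 3.49 and 3.94. With genes of at least 1 FPKM in a library, 5 of 51 repair genes were called lower and 2 higher, beside 11.9% lower and 15.6% higher of all 11967 such genes. The share of lower calls among the repair genes was then 9.80%, under that of all genes. Scaling moved these counts. With values floored at 0.01 FPKM and divided by the library median, 17 of 65 repair genes were called lower and 1 higher. Of all genes, 22.99% were then called lower and 17.01% higher. Of all genes called in either direction 57.5% were lower, in place of 41.7%. All 10 repair genes with at least 10 FPKM in a library stayed under 2-fold, with ratios of 0.606 to 1.73.

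**Figure D1:**
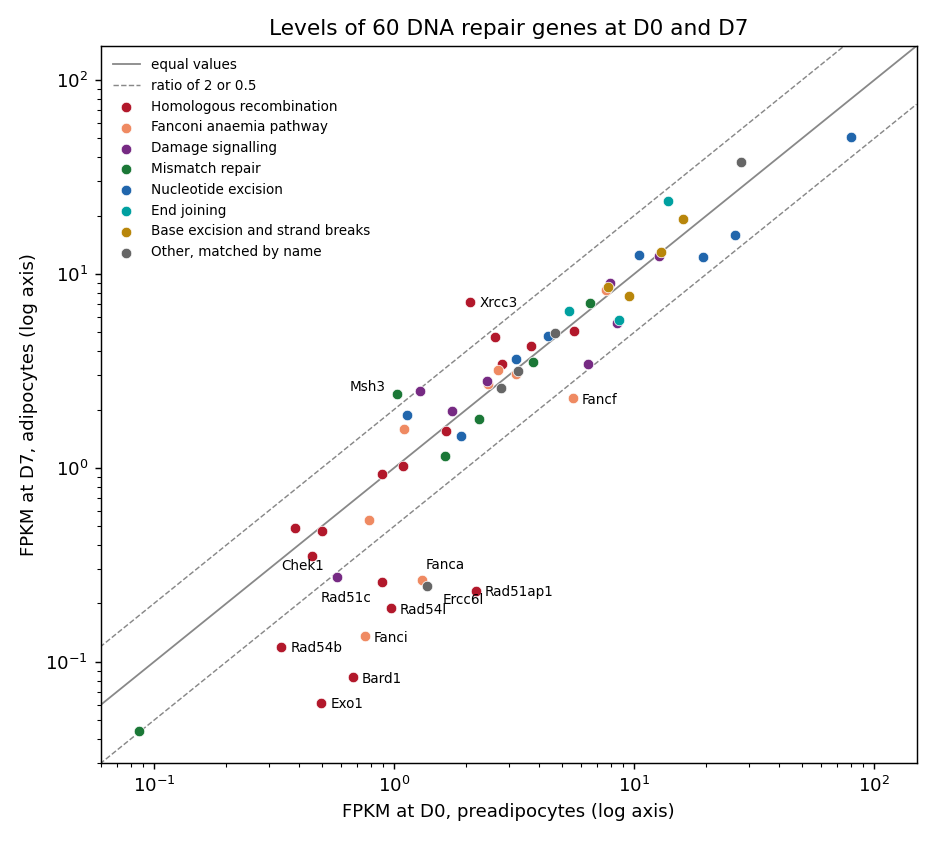
FPKM at D0 (x axis) and at D7 (y axis), both on log axes, for 60 DNA repair genes above 0 in both libraries, 1 library per stage, coloured by role. Equal values lie on the solid line and 2-fold differences on the dashed lines. The 11 genes shown that were called lower lie below the lower dashed line at 5.54 FPKM or less at D0, while Xrcc3 and Msh3 lie above the upper one.

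The calls were spread unevenly over the roles. Homologous recombination genes made up 7 of the 12 lower calls (of 18 genes), Fanconi anaemia genes 3 (of 9) and damage signalling 1 (of 8). The remaining 1 came from the 5 matched genes that were assigned to none of the roles. No gene of nucleotide excision (9 genes), end joining (3) or base excision and strand break repair (4) passed 2-fold in either direction. Mismatch repair had 0 lower calls and 1 higher call among 8 genes above 0 in both libraries. Each gene was counted under 1 role, and Exo1, which was called lower and also serves mismatch repair, was counted under recombination. The medians of the roles lay much closer together than their extremes, between -0.12 for recombination and 0.27 for end joining on the log2 scale. Lower calls were 38.9% of the recombination genes, 33.3% of the Fanconi anaemia genes and 12.5% of the signalling genes, beside 13.2% of all genes. The roles also differed in level. The median at D0 was 1.03 FPKM for recombination and 2.45 for Fanconi anaemia. It was 10.5 for nucleotide excision, 8.66 for end joining and 11.2 for base excision. Most lower calls lay among genes of low level, so role and level cannot be told apart here. These are counts of small groups in 1 pair of libraries, and no test of the differences between roles was made.

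Homologous recombination held both the smallest and the largest ratio of the repair genes. Rad51ap1, which stimulates strand pairing (chromosome 6, 126923050 to 126939587), was at 2.19 FPKM at D0 and 0.232 at D7. It was 9.46-fold lower (ratio 0.106, interval 0.0401 to 0.222), the smallest ratio of the 64 genes. Rad54l, a motor protein that acts on paired strands and chromatin, was at 0.970 FPKM at D0 and 0.189 at D7 (ratio 0.195, interval 0.0910 to 0.393). Its locus in the table is shared with Lrrc41 on the other strand, which was at 34.3 and 31.2 FPKM, so part of the Rad54l value is uncertain. Rad54b, its relative, was at 0.339 FPKM at D0 and 0.120 at D7, resting on about 20 and 6 fragments (ratio 0.353, interval 0.116 to 0.912). This gene shares its locus and strand with Fsbp, which was at 0.191 and 0.0623 FPKM, and reads of the pair cannot be fully separated.

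Exo1 and Bard1 fell by nearly the same factor. Exo1, the exonuclease that resects the broken end and also serves mismatch repair (chromosome 1, 175880581 to 175913489), was at 0.498 FPKM at D0 and 0.0617 at D7, about 81 and 9 fragments (ratio 0.124, interval 0.0577 to 0.261). Bard1, the obligate partner of BRCA1 in its ubiquitin ligase (chromosome 1, 71027498 to 71103146), was at 0.672 FPKM at D0 and 0.0832 at D7 (ratio 0.124, interval 0.0497 to 0.246). The partners of Bard1 had other ratios. Brca1 was at 0.893 FPKM at D0 and 0.931 at D7, with a ratio of 1.04 (interval 0.798 to 1.36) that does not overlap the interval of Bard1. Brca2, a mediator of strand exchange on single-stranded DNA, was at 0.503 and 0.470 FPKM (ratio 0.934, with an interval that includes 1), and Palb2, which joins BRCA1 to BRCA2, had a ratio of 0.773 with an interval that includes 1. The subunits of one pathway thus did not share one ratio in these libraries.

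Rad51b, Rad51c, Rad51d, Xrcc2 and Xrcc3, which encode relatives that assist recombination in small complexes, had ratios on both sides of 1. Rad51c (chromosome 11, 87376645 to 87404954) was at 0.889 FPKM at D0 and 0.257 at D7 and was called lower (ratio 0.289, interval 0.165 to 0.498). Xrcc3, its partner in one of those complexes (chromosome 12, 111803192 to 111813873), was at 2.08 FPKM at D0 and 7.21 at D7 and was called higher. Its ratio of 3.47 (interval 2.76 to 4.40, about 100 and 295 fragments) was the largest of the 64 genes. The locus of Xrcc3 is shared with Klc1 on the other strand, a kinesin light chain at 65.1 FPKM at D0 and 55.7 at D7. Klc1 is more abundant by far and its ratio was 0.855. The study's methods describe enzymatic degradation of the second cDNA strand during library preparation. Whether the counting used strand is still not given in the sources used here, so the share of Klc1 reads in the Xrcc3 value is unknown. Rad51d stayed under 2-fold, at 2.64 and 4.74 FPKM (ratio 1.80, interval 1.49 to 2.18). Rad51b had a ratio of 1.26 on about 17 and 18 fragments and Xrcc2 a ratio of 0.946, both with intervals that include 1.

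The remaining recombination genes stayed near their D0 level. Blm and Wrn, helicases of the RecQ family, had ratios of 0.948 and 1.22, and only the interval of Wrn (1.05 to 1.41) lay off 1. Rad50, of the complex that senses and trims broken ends, had a ratio of 0.904. Rad52, a single-strand annealing protein, had a ratio of 1.14.

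**Figure D2:**
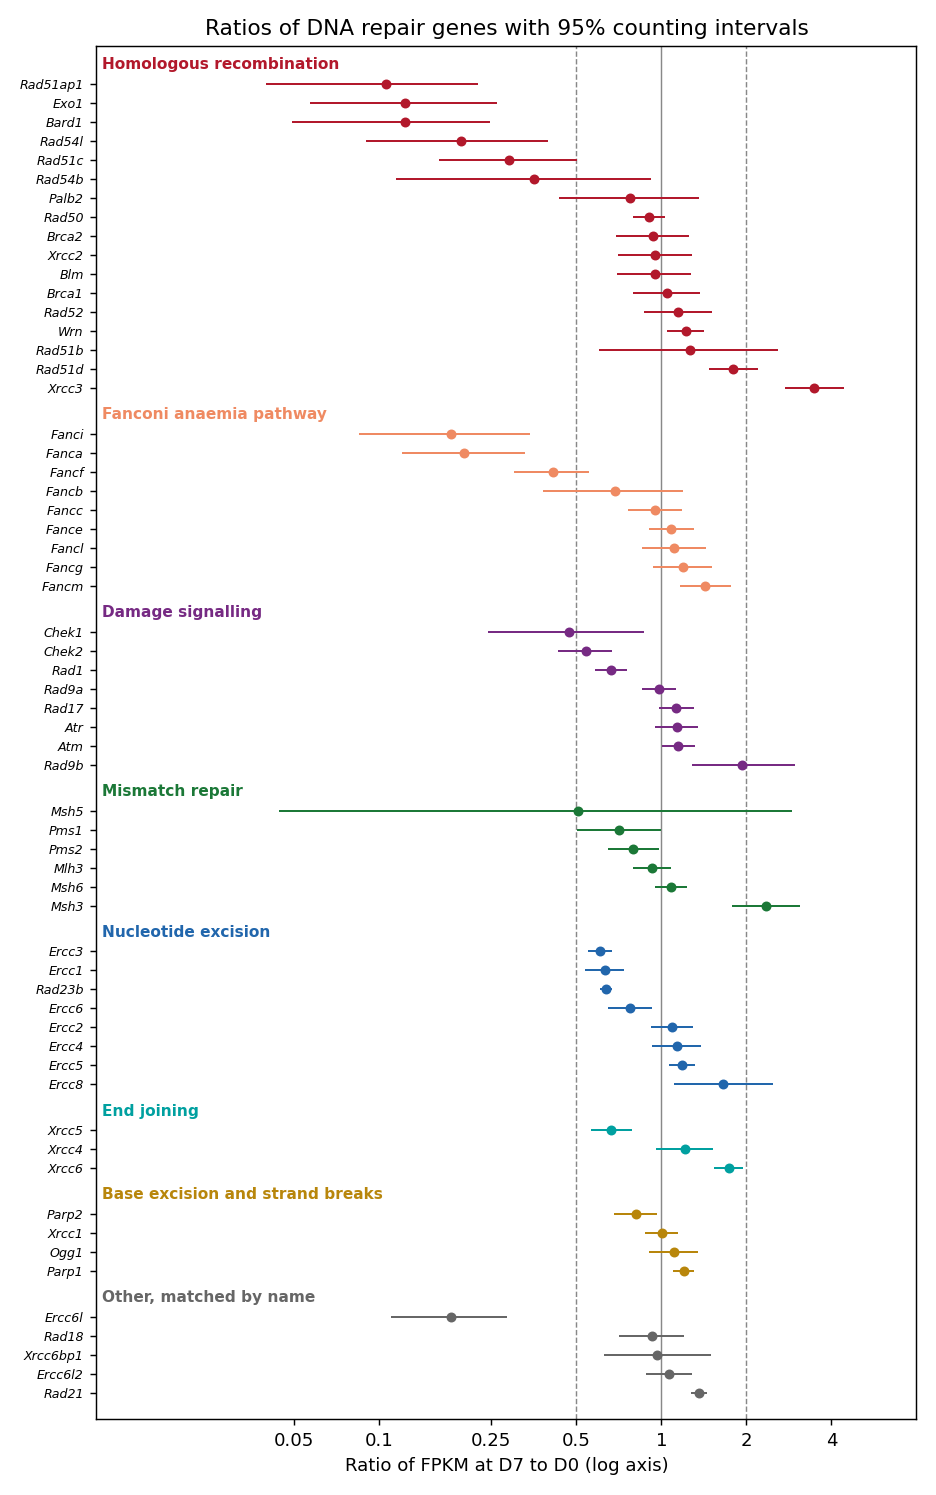
Ratio of FPKM at D7 to D0 (x axis, log scale) for each of 60 DNA repair genes above 0 in both libraries, listed by role and ordered by ratio. Points are ratios, bars are exact 95% counting intervals, and vertical lines mark 0.5, 1 and 2. Of the genes shown, intervals lay below 1 for 21, above 1 for 12 and across 1 for 27, and the recombination genes ran from 0.106 (Rad51ap1) to 3.47 (Xrcc3).

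Of the Fanconi anaemia genes, 3 of 9 were called lower. Fanci, which forms with FANCD2 the clamp that the pathway marks with ubiquitin, was at 0.755 FPKM at D0 and 0.136 at D7 (ratio 0.180, interval 0.0859 to 0.341). Polg, which shares its locus on the other strand, was at 10.6 and 15.0 FPKM. Fanca, a scaffold of the core complex that attaches this ubiquitin, was at 1.31 FPKM at D0 and 0.264 at D7 (ratio 0.201, interval 0.122 to 0.326), and the overlapping Zfp276 was at 3.40 and 3.12. Both partners stayed under 2-fold while Fanci and Fanca were called lower. Fancf, an adaptor of the core complex (chromosome 7, 51860577 to 51862267), was at 5.54 FPKM at D0 and 2.29 at D7 (ratio 0.412, interval 0.304 to 0.552). It had the highest D0 level of the 12 genes called lower, and its locus overlaps Gas2 on the other strand.

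The other core complex genes were not called. Fancb had a ratio of 0.686, Fancc of 0.947, Fance of 1.08, Fancg of 1.19, and Fancl, the ubiquitin ligase subunit, of 1.11, all with intervals that include 1. Fancm, the translocase that brings the complex to stalled forks, had a ratio of 1.43 (interval 1.17 to 1.75). Fance was the most abundant of the 9 at both stages, with 7.65 FPKM at D0 and 8.28 at D7.

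Among the damage signalling genes, the ratios of the effector kinases lay below those of the sensor kinases. Chek1, the kinase that acts below ATR at stalled forks (chromosome 9, 36708482 to 36727065), was at 0.579 FPKM at D0 and 0.272 at D7 and was called lower (ratio 0.471, interval 0.246 to 0.859, about 40 and 16 fragments). Chek2, which acts below ATM at double-strand breaks, was at 6.40 and 3.45 FPKM, a ratio of 0.539 (interval 0.436 to 0.665) just short of the threshold. Atr was at 1.74 FPKM at D0 and 1.97 at D7, and Atm was at 2.45 and 2.81, with ratios of 1.13 and 1.15. Neither interval of a sensor kinase overlaps that of its effector. Of the checkpoint clamp and its loader, Rad1 had a ratio of 0.663 (interval 0.585 to 0.750), Rad9a of 0.978 and Rad17 of 1.13. The locus of Rad9a is shared with Ppp1ca on the other strand, at 200 and 209 FPKM, so part of the Rad9a value is uncertain. Rad9b, a clamp subunit best known from testis, had a ratio of 1.93 (interval 1.29 to 2.95), the highest of the genes under 2-fold, from 1.28 FPKM at D0 to 2.48 at D7.

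In mismatch repair, Msh3 stood apart from the others. MSH3 takes part in the recognition of longer loops and MSH6 in that of single mismatches. Msh3 (chromosome 13, 92211872 to 92355003) was at 1.03 FPKM at D0 and 2.40 at D7 and was called higher (ratio 2.34, interval 1.79 to 3.08, about 83 and 165 fragments). Msh6 was at 6.55 FPKM at D0 and 7.07 at D7, with a ratio of 1.08. Its interval (0.957 to 1.22) includes 1 and does not overlap that of Msh3. The locus of Msh3 in the table is shared with another gene, so part of its value is uncertain. Msh6 likewise shares its locus with Fbxo11 on the other strand, at 16.8 FPKM at D0 and 17.9 at D7 (ratio 1.07). The value of Msh6 is therefore uncertain in part as well.

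Pms1, Pms2 and Mlh3, subunits of the MutL complexes that act after mismatch recognition, had ratios of 0.706, 0.795 and 0.929. The intervals of Pms1 and Pms2 lay below 1. Msh4 and Msh5, which act in meiosis, were close to the detection limit. Msh5 rested on about 5 and 2 fragments (ratio 0.508). Msh4 rested on about 1 fragment at D0 (0.0148 FPKM) and was listed at 0 at D7, where 3 fragments would correspond to 0.0523 FPKM, so no ratio is given for it.

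The nucleotide excision genes included the most abundant of the 65 and none passed 2-fold. Rad23b, which holds the damage sensor XPC in a stable complex, had the highest level of all, 80.3 FPKM at D0 and 51.1 at D7 (ratio 0.637, interval 0.610 to 0.664). About 6260 and 3387 fragments lay behind these values. Ercc3, a helicase of the general transcription factor TFIIH, was at 26.3 FPKM at D0 and 16.0 at D7 (ratio 0.606, interval 0.553 to 0.663). Ercc2, the other TFIIH helicase, was at 4.38 and 4.77 (ratio 1.09), and its locus overlaps Klc3.

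The nuclease subunits that cut on the 5-prime side of the lesion, encoded by Ercc1 and Ercc4, also differed. Ercc1 was at 19.3 FPKM at D0 and 12.2 at D7 (ratio 0.631, interval 0.541 to 0.733), and Ercc4 was at 3.23 and 3.65 (ratio 1.13, interval 0.935 to 1.37). Cd3eap, which overlaps Ercc1 on the other strand, was at 9.64 and 5.44 FPKM, a ratio of 0.564 close to that of Ercc1. Ercc5, the nuclease of the other side, had a ratio of 1.18. Of the Cockayne syndrome genes, which act where RNA polymerase has stalled, Ercc6 had a ratio of 0.776 (interval 0.652 to 0.922) and Ercc8 of 1.65 (interval 1.12 to 2.46).

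End joining split by subunit as well. Xrcc5 and Xrcc6 encode Ku80 and Ku70, the ring that caps broken ends. Xrcc6 was at 13.8 FPKM at D0 and 23.8 at D7 (ratio 1.73, interval 1.55 to 1.93), while Xrcc5 was at 8.66 and 5.77 (ratio 0.666, interval 0.568 to 0.779). Neither passed 2-fold, yet their intervals lie on opposite sides of 1. Xrcc6 overlaps Desi1 on the other strand, which leaves its value less certain than that of Xrcc5. Xrcc4, which holds the ligase at the ends, had a ratio of 1.21 with an interval of 0.963 to 1.52.

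The 4 matched genes of base excision and single-strand break repair had the narrowest range of ratios among the matched roles, 0.811 to 1.20. The 21 further base excision genes, counted below, ran from 0.266 to 3.53. Parp1, the main sensor of strand breaks, was at 16.0 FPKM at D0 and 19.2 at D7 (ratio 1.20, interval 1.11 to 1.30). Parp2 was at 9.49 and 7.70 FPKM (ratio 0.811, interval 0.685 to 0.958). Xrcc1, the scaffold that PARP1 calls to breaks, was at 13.0 FPKM at both stages (ratio 1.00, interval 0.884 to 1.14). Ogg1, the glycosylase that removes oxidised guanine, was at 7.75 and 8.57 FPKM (ratio 1.11). Its locus is shared with Camk1 on the other strand, at 55.8 and 41.1 FPKM, so part of the Ogg1 value is uncertain.

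Of the 5 matched genes that were assigned to none of the roles above, Ercc6l was called lower. Ercc6l, also known as PICH, is a motor protein of the DNA bridges that link sister chromosomes in anaphase (chromosome X, 102141716 to 102157091). It was at 1.37 FPKM at D0 and 0.245 at D7 (ratio 0.179, interval 0.111 to 0.281, about 150 and 23 fragments). Ercc6l2, a relative with a role in end joining, had a ratio of 1.06. Rad21, the kleisin subunit of cohesin, was at 27.9 and 37.7 FPKM (ratio 1.35, interval 1.28 to 1.43). Rad18, the ubiquitin ligase that marks PCNA for lesion bypass, had a ratio of 0.925, and Xrcc6bp1, annotated as Atp23 in GENCODE M21, had a ratio of 0.969.

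Counting error alone separates these calls unevenly. For all 12 genes called lower the interval lay below 1, and for 9 of them the whole interval lay at or below 0.5. The exceptions were Rad54b, Fancf and Chek1. Of the 2 genes called higher, the interval of Xrcc3 lay wholly above 2 and that of Msh3 did not. Among the 50 genes under 2-fold, 11 intervals lay above 1, 10 below 1 and 29 included 1. Of the 31 repair genes with at least 3 FPKM at D0, 2 were called lower, against 10 of the 34 with less. The 34 include Msh4, which could not be called. Shares of all genes at these levels were not computed, so whether this contrast is particular to repair genes was not tested. The locus in the table was shared with another gene for 14 of the 65, among them 4 called lower (Fanci, Rad54l, Fanca and Rad54b) and both called higher.

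Other genes of the repair pathways were counted in the same way. Of 103 further genes of the same pathways, 102 were above 0 in both libraries, 11 were called lower and 5 higher, with a median log2 ratio of -0.19. These shares of 10.8% and 4.90% lie under the 13.2% and 18.5% of all genes. With at least 1 FPKM in a library, 6 of 94 were called lower (6.38%, beside 11.9%) and 5 higher (5.32%, beside 15.6%). Clspn, the adaptor through which ATR activates CHK1, was at 1.56 FPKM at D0 and 0.433 at D7 (ratio 0.278). Lig1 (ratio 0.325), Pold1 (0.453) and Fen1 (0.457) encode the ligase, polymerase and flap nuclease that repair shares with lagging-strand replication. Ube2t, the conjugating enzyme of the Fanconi anaemia pathway, had a ratio of 0.387. Trp53, which encodes p53, was at 56.1 FPKM at D0 and 22.8 at D7 (ratio 0.406, interval 0.371 to 0.444).

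Of the 5 genes called higher in the wider set, 4 belong to base excision. Ung, which removes uracil, was at 0.809 FPKM at D0 and 2.86 at D7 (ratio 3.53, interval 2.36 to 5.55). Mutyh, which removes adenine paired with oxidised guanine, was at 0.763 and 2.55 FPKM (ratio 3.34). Neil2, a glycosylase for oxidised bases, was at 0.456 and 1.39 FPKM (ratio 3.05, interval 1.71 to 5.69). Rev3l, the catalytic subunit of the translesion polymerase zeta, was at 2.76 and 6.80 FPKM (ratio 2.46). Of the 21 further base excision genes, 4 were called higher (19.0%, near the 18.5% of all genes) and 2 lower (9.52%, beside 13.2%), and their median log2 ratio was -0.07.

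**Figure D3:**
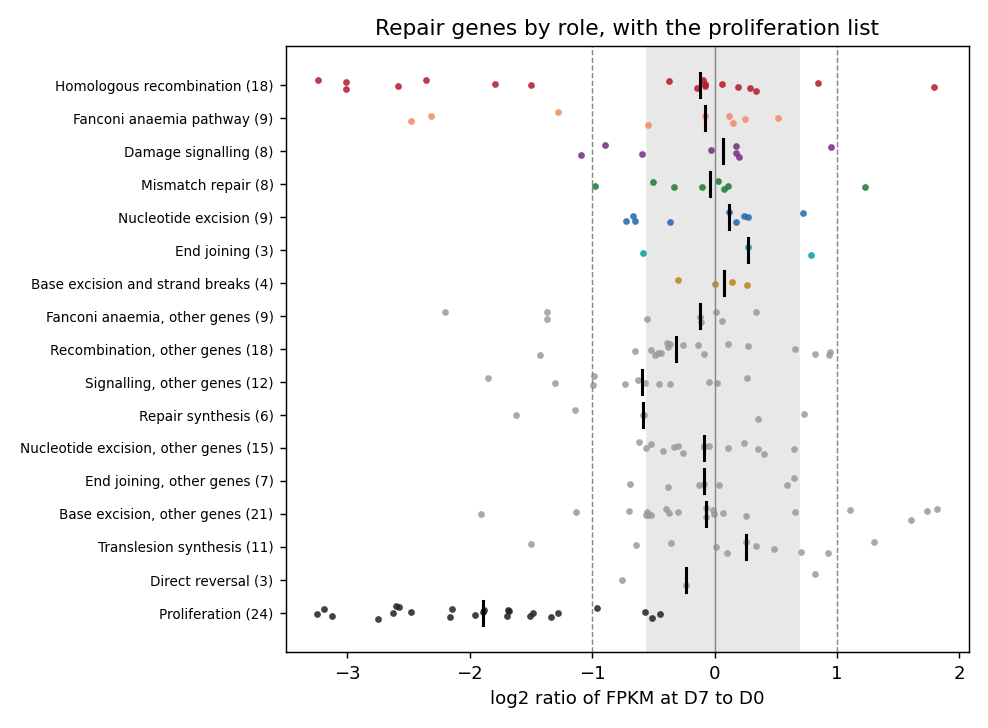
log2 ratio of FPKM at D7 to D0 (x axis) for repair genes grouped by role, with the number of genes in brackets. Coloured points are the matched repair genes, without the 5 assigned to none of the roles. Grey points are further genes of the same pathways and black points are the 24 proliferation genes. Vertical bars mark medians, dashed lines 2-fold, and the grey band the lower to the upper quartile of all genes (-0.55 to 0.69). The proliferation genes all lie below 0, with a median of -1.89, while every repair role has its median between -0.60 and 0.27.

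As background, E2F factors, which act with the retinoblastoma protein at the entry into DNA replication, bind words such as TTTCCCGC, TTTCGCGC, TTTGCCGC and TTTGGCGC. These 4 words were searched on both strands in the 300 bases from 250 before to 50 after the start of each gene, in RefSeq promoters of GRCm38.p6. A promoter was found for 50 of the 65 genes, and none for several, among them Ercc3, Ercc6l, Exo1, Rad21, Rad50, Rad51d, Rad54b, Rad9a, Wrn, Xrcc2 and Xrcc6bp1. At least 1 word stood in 9 of the 50 promoters (18%), beside 2.61% of the promoters of all 27025 genes and 4.66% of those of genes with at least 1 FPKM in a library. The words stood among genes of every call. They were present in 2 of the 8 genes called lower that had a promoter (Bard1 and Rad51c), in 1 of 2 called higher (Msh3) and in 6 of 39 under 2-fold (Msh5, Chek2, Brca2, Msh6, Fancg and Xrcc6). In the proliferation list they were present in 5 of 19.

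The CHR element TTTGAA was found in 4 of the 50 promoters (8%, beside 20.2% of all genes and 13.8% of those with at least 1 FPKM) and CCAAT in 30 (60%, beside 41.1% and 43.2%), also on both strands and independently of the other words. A match is a string of letters and does not show that a factor binds there. The median GC content was 59.8% in the promoters of the repair genes, beside 52.8% for all genes and 61% for genes with at least 1 FPKM.

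The promoters of 4 genes with an E2F word are shown because they cover genes called lower, under 2-fold and called higher. Each is given from 5-prime to 3-prime on the strand of the gene, with the E2F words in capitals on whichever strand they read. Bard1 (chr1:71102923-71103222, minus strand) and Rad51c (chr11:87404905-87405204, minus strand) were called lower, Brca2 (chr5:150522371-150522670, plus strand) had a ratio of 0.934, and Msh3 (chr13:92354954-92355253, minus strand) was called higher. In Msh3 a pair of words on opposite strands overlap, and the capitals mark their union.
Bard1: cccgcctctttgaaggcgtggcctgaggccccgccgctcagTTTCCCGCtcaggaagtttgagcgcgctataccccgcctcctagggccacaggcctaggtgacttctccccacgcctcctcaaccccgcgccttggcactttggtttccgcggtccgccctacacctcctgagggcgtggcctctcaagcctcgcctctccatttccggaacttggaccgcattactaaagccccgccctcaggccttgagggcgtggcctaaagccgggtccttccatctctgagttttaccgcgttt
Rad51c: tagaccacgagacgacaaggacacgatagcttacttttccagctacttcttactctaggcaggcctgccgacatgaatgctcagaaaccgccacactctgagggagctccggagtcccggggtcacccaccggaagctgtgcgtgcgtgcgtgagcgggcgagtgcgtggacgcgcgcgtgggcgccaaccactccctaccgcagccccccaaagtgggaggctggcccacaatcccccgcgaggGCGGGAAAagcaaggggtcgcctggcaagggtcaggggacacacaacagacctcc
Brca2: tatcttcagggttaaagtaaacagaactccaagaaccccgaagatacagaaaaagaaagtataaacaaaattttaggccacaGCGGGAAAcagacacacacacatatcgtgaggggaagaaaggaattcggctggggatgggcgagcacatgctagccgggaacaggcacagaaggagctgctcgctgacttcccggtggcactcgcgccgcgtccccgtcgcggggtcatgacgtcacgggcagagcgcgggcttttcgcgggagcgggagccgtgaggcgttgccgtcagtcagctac
Msh3: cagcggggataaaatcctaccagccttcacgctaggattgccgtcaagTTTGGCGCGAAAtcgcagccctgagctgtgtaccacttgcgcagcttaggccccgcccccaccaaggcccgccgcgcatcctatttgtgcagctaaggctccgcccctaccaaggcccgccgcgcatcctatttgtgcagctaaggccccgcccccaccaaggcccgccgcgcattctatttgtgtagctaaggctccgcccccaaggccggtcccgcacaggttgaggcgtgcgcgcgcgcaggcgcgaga
The single word of Bard1 reads on the strand of the gene, and those shown for Rad51c and Brca2 read on the other strand. Rad51c has another promoter entry (chr11:87404457-87404756), not shown, with 1 word on the strand of the gene. The locus of Rad51c in the deposited table ends at 87404495, within that other entry and not within the one shown.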

How the data were processed

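RNA-Seq had been performed with 1 library at D0 and 1 at D7. Reads were cleaned and then aligned to mm10 by the authors, with SOAP2 in the study's methods and Bowtie2 in the submitters' processing notes, and the deposited table gives FPKM for each gene. Of 27324 rows, 3963 without a value were left out. The repair genes were found by a pattern on the symbol, and they and all gene lists were chosen with earlier results of these data known.

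Genes above 0 at both stages were compared by dividing FPKM at D7 by FPKM at D0, with no pseudocount or rescaling, and called at a ratio of 2 or 0.5, the fold used by the study. Roles came from a hand-written list. Each repair gene is named, except 4 that are counted but not reported here. From the wider set, genes past 2-fold with at least 1 FPKM in a library are counted, and the 6 smallest and 4 largest ratios are named.

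Depth was recovered from 590 single-exon genes. With 21471460 (D0) and 18265392 (D7) fragments as denominators, and effective lengths shortened by 179 and 182 bp, all 76 and 86 values that rest on 20 fragments or fewer came out whole to within 0.1, against 17.4% and 19.0% with shuffled lengths. Fragment numbers of other genes used the length of the named transcript (58 repair genes) or of the longest coding transcript (7) in GENCODE M21 and are approximate. The 95% bounds of each ratio were taken by the exact Clopper-Pearson method, and 3 fragments were taken as the limit of a value of 0. Intervals and limits cover counting error only. On simulated data for the same contrast, 200 of 200 changed genes and 0 of 7800 unchanged genes were called, and 96.5% of intervals held the true ratio. The simulation kept only genes with a D0 level above that of most repair genes called lower. Changed genes were set to differ 4-fold in either direction, with counting error only. Calls at low levels and ratios near the threshold were therefore not simulated. Promoter sequences came from RefSeq (GRCm38.p6). Alternatives were 2 pseudocounts, a floor, 4 other scalings, 2 filters, summed rows, a 4-fold threshold and the interval in place of the fold. Python 3.11.15, pandas 2.3.3 and scipy 1.17.1 were used. Sequences of the proteins were not analysed here.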

Additional observations from a re-analysis of the deposited data

How the results depend on the processing

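No paired analysis was possible because each stage has 1 library, and for the same reason no library could be left out. The median log2 ratio of the repair genes, -0.06 in the main setting, ran from -0.43 to 0.08 under the alternatives. The lowest value came with a floor of 0.01 and division by the library median, the highest with genes of at least 1 FPKM. All values lay within -0.51 to 0.34, the counting interval of the middle gene. That is the counting error of 1 gene and does not measure how well the median is known. The counts moved too. The 12 lower calls became 2 of 65 with a pseudocount of 1, where 6.12% of all genes were called lower. They became 5 of 51 with at least 1 FPKM in a library, beside 11.9% of all such genes. At 4-fold they became 8 of 64, beside 3.86% of all genes. Under the other alternatives they lay between 10 and 17. The 2 higher calls became 1 with a pseudocount of 1, 1 with a floor of 0.01 and division by the library median, and 0 at 4-fold. In the wider set the 11 lower calls became 2 of 102 with a pseudocount of 1. They became 18 of 102 with the floor and library median, 6 of 94 with at least 1 FPKM and 1 of 102 at 4-fold. Of all genes, 6.12%, 22.99%, 11.9% and 3.86% were called lower under these settings, in that order. The 5 higher calls became 3, 3 and 0 with the pseudocount of 1, the floor and library median, and 4-fold. Of all genes, 9.20%, 17.01% and 8.08% were then called higher. A pseudocount of 1 pulls ratios of genes under 1 FPKM towards 1 by construction. Floor and library median shift every ratio by -0.35 on the log2 scale and move the lower share of all called genes from 41.7% to 57.5%, and 17 repair genes were then called lower and 1 higher, with 57 of 65 at a ratio under 1, against 34 of 64. Chek2 (0.422), Ercc3 (0.475), Ercc1 (0.494), Rad23b (0.499) and Msh5 (0.398) then fell at or below 0.5, and Msh3 (1.83) lost its call. Rad51ap1 was called lower and Xrcc3 higher in all 11 settings for ratios. Over 626 pairs of a repair gene and a setting, 578 values lay within the counting interval of the main ratio and 48 outside it. The 2 filters leave a ratio as it is, so their pairs could not move. That 0 calls changed direction was fixed in advance. A pseudocount keeps a ratio on its side of 1, and the largest shift by scaling, -0.35, is too small to reverse a 2-fold call. Few fragments stand behind Rad54b (20 and 6), Msh5 (5 and 2) and Msh4 (1 and 0).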

Other observations

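The remaining genes of the wider set that were called, 5 of them lower and all at under 1 FPKM in both libraries, are named after their values were seen. Fancd2, the partner of Fanci in the Fanconi anaemia clamp, was at 0.820 FPKM at D0 and 0.179 at D7 (ratio 0.218, interval 0.119 to 0.359), close to the ratio of 0.180 for Fanci. Brip1, a helicase that binds BRCA1, had a ratio of 0.387. Gen1, a resolvase of recombination intermediates, had a ratio of 0.372, Polq, the polymerase of microhomology-mediated joining, of 0.353 and Neil3, a glycosylase of replicating cells, of 0.266. Apex2, an endonuclease of base excision at 3.55 and 7.65 FPKM, was the remaining gene called higher (ratio 2.16).

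The 79 ribosomal protein genes above 0 in both libraries had a median log2 ratio of -0.91, with 26 called lower and 0 higher. The lower calls were 32.9% of them, while 13.2% of all genes were called lower and 18.5% higher. Their levels were high, at a median of 1130 FPKM at D0 and 612 at D7, beside 6.36 and 6.81 for all genes above 0 in both.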
